A study of Mus musculus with 14 samples.

Results

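A set of 10 genes of the macrophages of the spleen's red pulp and marginal zone was followed in the spleen cells of 14 mice, 7 WT and 7 Sting gt/gt. The genes were Spic, Vcam1, Hmox1, Slc40a1, Cd163, Adgre1, Csf1r and Mertk for the red pulp and Marco and Siglec1 for the marginal zone. Probes were assigned to them through their accession in RefSeq, which gave 15 probes, and all 10 genes were among the 24908 genes tested. Both groups were mice of 10 to 14 weeks, immunised intradermally with complete Freund's adjuvant and chicken collagen type II (CFA + CII). This is the start of the collagen-induced arthritis model, and both groups were taken 2 weeks later. Sting gt/gt mice carry the golden ticket allele, made by chemical mutagenesis with ENU, on both copies of the gene for STING, an adaptor that turns cytosolic DNA sensing into interferon and NF-kB signalling. Per the methods, WT mice came from another supplier than the Sting gt/gt line. The spleens were pressed through a strainer, and red blood cells were lysed. No array here held a spleen without CFA + CII, so the comparison is between genotypes within immunised mice.

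Red pulp macrophages engulf aged red blood cells, degrade their haem with haem oxygenase 1 (the product of Hmox1) and return the iron to the blood through ferroportin (Slc40a1). Their identity depends on the transcription factor SPI-C, whose gene is induced by haem, and on growth factor signalling through the receptor encoded by Csf1r. Marginal zone macrophages line the border between red and white pulp, where MARCO and sialoadhesin (Siglec1) bind particles from the blood.

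Each RNA sample was hybridised to 1 one-colour Agilent array, and a level is given here as log2 of the background-corrected signal with the array's 75th percentile set to 0. Between 30781 and 34400 of 56605 probes were well above background on an array. The scanner files carry 2 scan days, with replicates 1 to 3 of each genotype on scan day 1 and replicates 4 to 7 on scan day 2. With genotype in the model, the scan days differed for 38.8% of all genes (adjusted p under 0.05 by limma), so each contrast was also made within scan days. On scan day 2 all 4 Sting gt/gt arrays lay on 1 slide and the WT arrays on others, so slide and genotype cannot be told apart on that day. The targeted gene, Sting1, lay between 2.35 and 2.85 in WT and between 2.45 and 2.77 in Sting gt/gt mice, so its RNA level did not separate the genotypes. The golden ticket allele is a missense change, and an RNA level is no check of it. RNA of a whole splenocyte suspension was measured, so fewer cells of a type and less RNA per cell cannot be told apart.

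Promoter sequence was read from RefSeq (GRCm38.p6) for 4 of the 10 genes, Spic, Mertk, Marco and Cd163. The 250 bases before the start site are printed for Spic and Mertk, the members whose levels went together most closely across arrays, and for Marco, the member whose window held a match. Both strands were searched for GAGGAA, the core bound by PU.1 and SPI-C, and for TGANNNNGC, a core shared by the elements of BACH1 and NRF2. Spic lies on the minus strand at chr10:88683024-88683273, Mertk on the plus strand at chr2:128698665-128698914 and Marco on the minus strand at chr1:120505025-120505274. Capitals mark the match.
Spic: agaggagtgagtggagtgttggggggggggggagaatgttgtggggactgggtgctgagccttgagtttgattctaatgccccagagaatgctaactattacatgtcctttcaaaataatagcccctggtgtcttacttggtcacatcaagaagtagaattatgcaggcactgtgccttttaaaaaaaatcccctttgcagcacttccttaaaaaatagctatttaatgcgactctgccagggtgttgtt
Mertk: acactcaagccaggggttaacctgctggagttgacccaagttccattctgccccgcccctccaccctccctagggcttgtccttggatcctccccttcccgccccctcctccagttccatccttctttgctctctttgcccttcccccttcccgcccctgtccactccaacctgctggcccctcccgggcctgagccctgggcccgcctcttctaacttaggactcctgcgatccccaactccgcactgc
Marco: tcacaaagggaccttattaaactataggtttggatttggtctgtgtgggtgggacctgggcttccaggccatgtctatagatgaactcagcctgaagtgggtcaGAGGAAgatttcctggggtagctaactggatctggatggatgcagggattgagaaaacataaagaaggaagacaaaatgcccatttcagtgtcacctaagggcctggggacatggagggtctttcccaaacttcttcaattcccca
Of the 4 windows only that of Marco held a match, GAGGAA from base -146 to -141 counted from the start site, on the strand of the gene. GAGGAA was found in 23.3% of all 32851 promoter windows of this length and TGANNNNGC in 35.2%. The match is one of letters and was not tested for binding.

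To ask whether loss of STING changed the RNA of these macrophages after immunisation, the genotypes were compared over all 14 arrays. None of the 10 genes passed an unadjusted p of 0.05 by limma, against 3.48% of all genes tested (868 of 24908), and the exact permutation test over 3432 ways to part the arrays called none of them either. Their log2 fold changes had a median of -0.03, beside 0.02 over all genes, with 4 above 0 and 6 below. The values of the genotypes overlapped for all 10 genes, while those of 0.0442% of all genes did not. The 95% intervals of the 10 fold changes lay between 0.686-fold and 1.39-fold with 7 arrays a group.

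Spic, the transcription factor of the red pulp macrophage, ranged from 3.42 to 4.44 (median 3.69) in WT mice and from 3.44 to 4.23 (median 3.86) in Sting gt/gt mice. Its log2 fold change was -0.05 (standard error 0.19, n = 7 a group, p = 0.798 by the exact permutation test). Both groups thus spanned the same range.

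Of the genes for haem and iron, Hmox1 lay between 5.65 and 6.09 (median 5.76) in WT and between 5.53 and 6.22 (median 5.90) in Sting gt/gt mice, which gave a log2 fold change of 0.10 (standard error 0.12). Slc40a1, the iron exporter, lay between 4.40 and 5.20 (median 4.78) in WT and between 4.32 and 5.36 (median 5.02) in Sting gt/gt mice, which gave a log2 fold change of 0.10 (standard error 0.17). Cd163, the scavenger receptor for haemoglobin bound to haptoglobin, lay between 0.00 and 0.97 (median 0.58) in WT and between -0.14 and 1.02 (median 0.28) in Sting gt/gt mice, which gave a log2 fold change of -0.10 (standard error 0.19). Each of these differences was smaller than its standard error.

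Vcam1, an adhesion molecule on red pulp macrophages and on stroma, ranged from 4.75 to 5.44 (median 5.09) in WT and from 4.88 to 5.43 (median 5.19) in Sting gt/gt mice. Csf1r, the receptor for the survival factors CSF1 and IL-34, ranged from 5.27 to 5.76 (median 5.55) and from 5.13 to 5.93 (median 5.50). The log2 fold changes were 0.05 (standard error 0.13) for Vcam1 and -0.01 (standard error 0.13) for Csf1r. Mertk, a receptor for the uptake of apoptotic cells, ranged from -0.14 to 0.58 (median -0.02) in WT and from -0.38 to 0.49 (median 0.05) in Sting gt/gt mice. Its log2 fold change was -0.15 (standard error 0.19, p = 0.473 by the exact permutation test).

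Of the marginal zone pair, Marco, a scavenger receptor, lay between 4.80 and 5.48 (median 5.18) in WT and between 4.69 and 5.54 (median 4.94) in Sting gt/gt mice. Siglec1, a lectin of the metallophilic macrophages at the inner border, lay between -1.30 and -0.35 (median -0.93) in WT and between -1.24 and -0.67 (median -0.97) in Sting gt/gt mice. Their log2 fold changes were -0.08 (standard error 0.15) for Marco and -0.11 (standard error 0.15) for Siglec1, both within the spread between arrays.

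**Figure D1:**
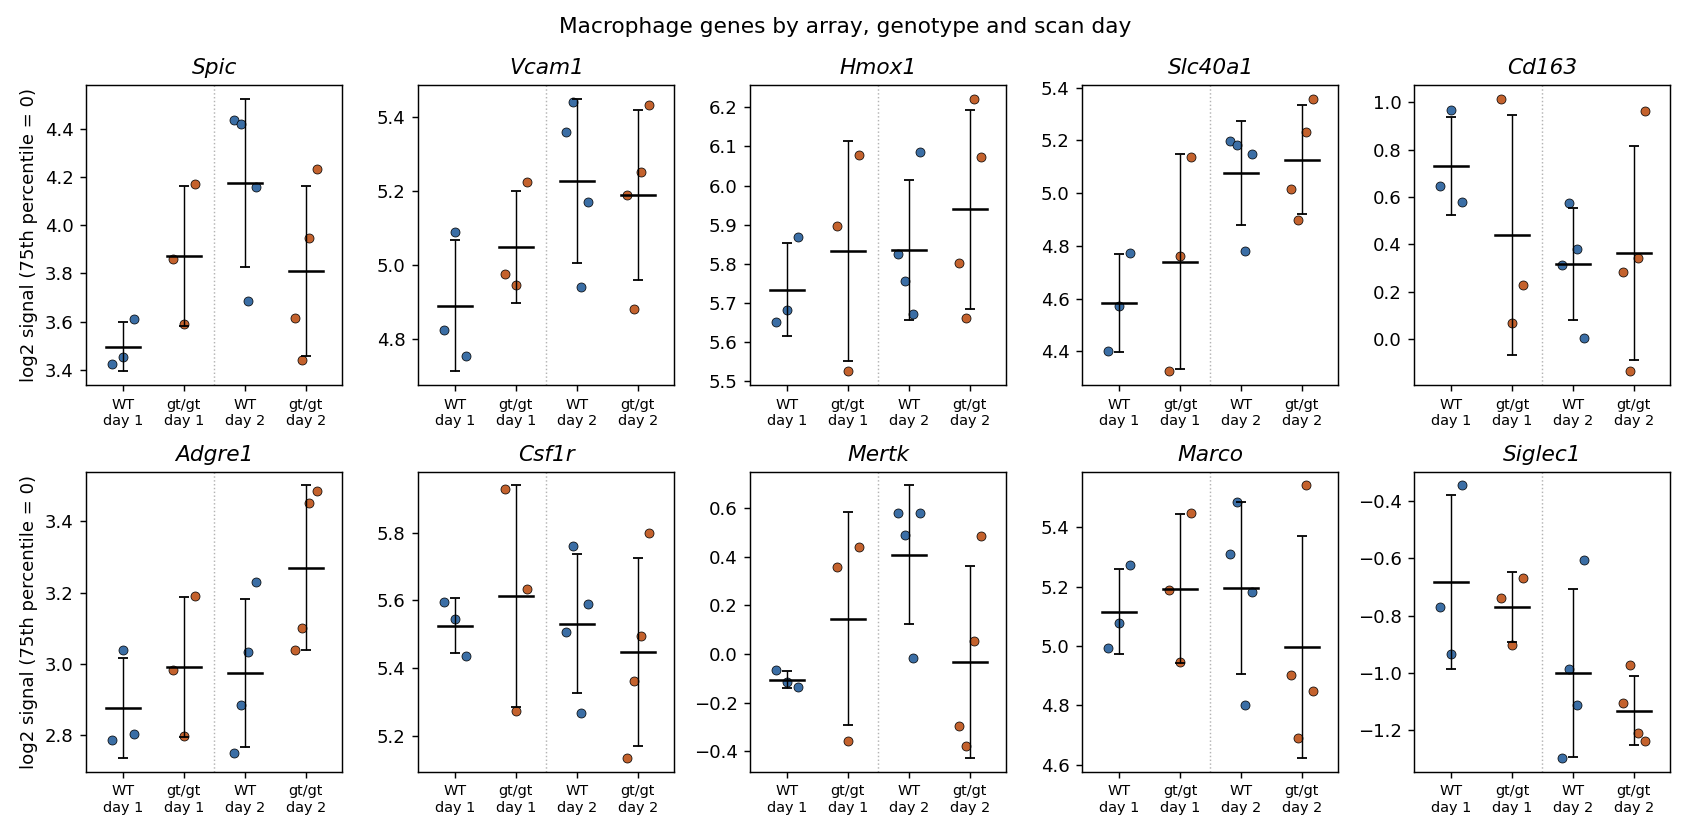
Levels of the 10 genes on each of the 14 arrays, as log2 signal with the array's 75th percentile at 0 (y axis, a separate range for each gene), by genotype and scan day (WT blue, Sting gt/gt orange; bar and whiskers are mean and SD of 3 arrays a genotype on day 1 and 4 on day 2). The genotypes overlap in every panel, and the mean of Spic lies higher in Sting gt/gt on day 1 and lower on day 2.

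Adgre1, which encodes the macrophage surface antigen that defines mouse macrophages in flow cytometry, had the lowest p of the 10 genes. It ranged from 2.75 to 3.23 (median 2.89) in WT and from 2.80 to 3.49 (median 3.10) in Sting gt/gt mice, which gave a log2 fold change of 0.22 (standard error 0.12, limma's adjusted p = 1.0). Permuting the genotypes over all arrays gave an exact p of 0.0862, and permuting them within scan days (1400 ways) gave 0.0657. Leaving out 1 array decided the call, since the log2 fold change passed the unadjusted threshold at 0.27 without WT replicate 7 and at 0.28 without Sting gt/gt replicate 2, with adjusted p of 0.996 and 0.890 by limma.

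Adgre1 has a second probe on the array, which was much dimmer and was well above background on 13 of 14 arrays, all but WT replicate 1. On it WT mice ranged from -4.81 to -4.23 (median -4.52) and Sting gt/gt mice from -4.57 to -2.91 (median -3.88). The groups overlapped, but 5 of the 7 Sting gt/gt arrays lay above every WT array. The log2 fold change of this probe was 0.57 (standard error 0.21, limma's adjusted p = 1.0), and the exact permutation test gave p = 0.0157. It was the only one of the 14 member probes tested under an unadjusted p of 0.05, against 3.43% of all 31766 probes. Within scan day 2 its log2 fold change was 0.55 and passed the unadjusted threshold, as did 22.7% of all probes (exact permutation p = 0.0857), and within day 1 it was 0.58 and did not pass (exact permutation p = 0.3). With normexp background correction the value over all arrays was 0.19 and the call was lost. The mean of both Adgre1 probes gave a log2 fold change of 0.39, which passed the unadjusted threshold (adjusted p = 1.0 by limma).

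The other genes with more than 1 probe had no call on either. The second Vcam1 probe gave a log2 fold change of -0.10 (standard error 0.11), opposite in sign to the brighter one. The second Csf1r probe gave 0.04 (standard error 0.09), also opposite in sign. The second Cd163 probe, well above background on 7 arrays, gave 0.05 (standard error 0.46). The second Siglec1 probe was not well above background on any array and was not tested.

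**Figure D2:**
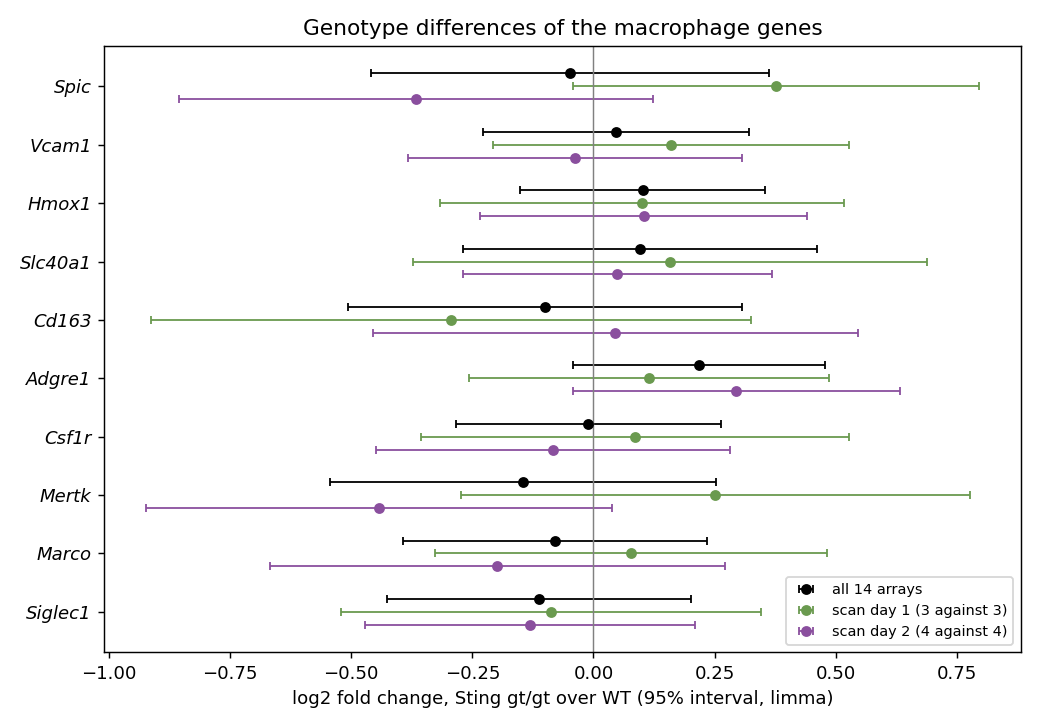
Log2 fold change of each gene, Sting gt/gt over WT, with its 95% interval by limma (x axis), over all 14 arrays and within scan days 1 and 2. Every interval includes 0, and the estimates of Spic and Mertk lie farthest apart between the 2 days, on opposite sides of 0.

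Within scan days, no member, read from its brightest probe, passed an unadjusted p of 0.05 by limma either, against 3.86% of all genes on day 1 (3 arrays a genotype) and 23.3% on day 2 (4 a genotype). The median of the 10 log2 fold changes was 0.11 on day 1 and -0.06 on day 2, beside 0.02 over all genes on each day. These counts moved with single arrays. On day 1, Spic and Mertk passed without Sting gt/gt replicate 2, and Cd163 passed without Sting gt/gt replicate 1. On day 2, Spic and Mertk passed without WT replicate 6 or without Sting gt/gt replicate 7, and Adgre1 passed without WT replicate 7 or without Sting gt/gt replicate 4.

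The mean of Spic was higher in Sting gt/gt mice on day 1 and higher in WT mice on day 2, with overlapping genotypes and no call on either day. On day 1 it was 3.42, 3.45 and 3.61 in WT and 3.86, 3.59 and 4.17 in Sting gt/gt mice. On day 2 it was 4.44, 4.42, 3.69 and 4.16 in WT and 3.61, 3.44, 3.95 and 4.23 in Sting gt/gt mice. The WT arrays of day 1 were thus among the lowest and 3 of the 4 WT arrays of day 2 among the highest, while the Sting gt/gt arrays spread over the same range on both days.

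The log2 fold change of Spic was 0.38 (standard error 0.18, n = 3 a group, exact permutation p = 0.2) on day 1 and -0.37 (standard error 0.22, n = 4 a group, exact permutation p = 0.229) on day 2. The day 2 difference minus the day 1 difference was -0.74 (standard error 0.31, limma's adjusted p = 0.227), and an exact permutation of genotypes within days gave p = 0.0371. Spic was the only member of 10 to pass this test at an unadjusted p of 0.05, and it passed on the lower side, as did 10.3% of all genes. The call was lost without any one of WT replicates 1, 2, 4 or 5 or Sting gt/gt replicates 3, 4 or 5, where the value lay between -0.72 and -0.59.

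Mertk followed a pattern like that of Spic but did not pass. It was -0.07, -0.12 and -0.14 in WT and 0.36, -0.36 and 0.44 in Sting gt/gt mice on day 1. On day 2 it was 0.58, 0.49, -0.02 and 0.58 in WT and -0.30, -0.38, 0.05 and 0.49 in Sting gt/gt mice. Its log2 fold change was 0.25 on day 1 and -0.44 on day 2, and the difference of -0.69 had p = 0.0671 by the exact permutation test (adjusted p = 0.291 by limma). It passed when WT replicate 6 (-0.84) or either of Sting gt/gt replicates 2 (-0.95) and 7 (-0.87) was left out.

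Of the other 8 members, the difference between days ranged from -0.28 for Marco to 0.34 for Cd163, and none passed. B cell markers moved in the same sense as Spic, with 7 of 8 lower in this test against 10.3% of all genes. Their summed level (log2) was 7.01 to 7.50 in WT and 6.70 to 6.94 in Sting gt/gt mice on day 2, and 6.68 to 7.14 and 6.75 to 7.27 on day 1. The part of B cell RNA in the Spic difference was not tested.

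Members also differed between scan days irrespective of genotype. Of the 10 members, 2 passed an adjusted p of 0.05, against 38.8% of all genes. Slc40a1 was 4.40, 4.57 and 4.77 in WT and 4.32, 4.76 and 5.14 in Sting gt/gt mice on day 1, and 5.20, 5.18, 4.78 and 5.15 in WT and 5.02, 4.90, 5.23 and 5.36 in Sting gt/gt mice on day 2. It was higher on day 2 by 0.44 on the log2 scale (standard error 0.13, adjusted p = 0.0149 by limma), and all 8 arrays of day 2 lay above 5 of the 6 arrays of day 1, the exception being Sting gt/gt replicate 3. Siglec1 went the other way, with -0.93 to -0.35 on day 1 and -1.30 to -0.61 on day 2, and it fell by 0.34 (standard error 0.12, adjusted p = 0.0333 by limma).

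The Siglec1 call was lost without any one of WT replicates 3, 4 or 6 or Sting gt/gt replicates 1, 3, 6 or 7, where the value lay between -0.33 and -0.27. The levels of all 10 members overlapped between days, while those of 15.7% of all genes did not. In the log2 table that the authors deposited, the scan days differed for 0.00% of the 24908 genes by limma after adjustment and for 1.39% (347) before it, and the differences were 0.10 for Slc40a1 and -0.23 for Siglec1. How that table was normalized, and whether by a step that brings the scan days together, is not given in the sources used here, so its scan day values cannot be set against those above. There, too, no member was called between genotypes, against 7.74% of all genes, and the Spic difference between days was -0.83 (adjusted p = 0.246 by limma).

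Across the 14 arrays, with the mean of each genotype and scan day subtracted, 41 of the 45 member pairs correlated above 0, with a median r of 0.49. These values are a description over arrays that share their scaling and scan days. Spic went most closely with Mertk (r = 0.89), Vcam1 (r = 0.83) and Slc40a1 (r = 0.74), and with Hmox1, Marco and Csf1r at 0.69 each. Siglec1 stood apart from the other members, with r between -0.38 and 0.34, and its r with Spic was -0.03. Within genotype and day, the SDs of the members lay on both sides of the median SD over all genes, 0.233. Cd163 (0.37), Mertk (0.33), Spic (0.31), Marco (0.29), Slc40a1 (0.25) and Csf1r (0.24) lay above it. Siglec1 (0.226), Hmox1 (0.218), Vcam1 (0.204) and Adgre1 (0.201) lay below it.

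**Figure D3:**
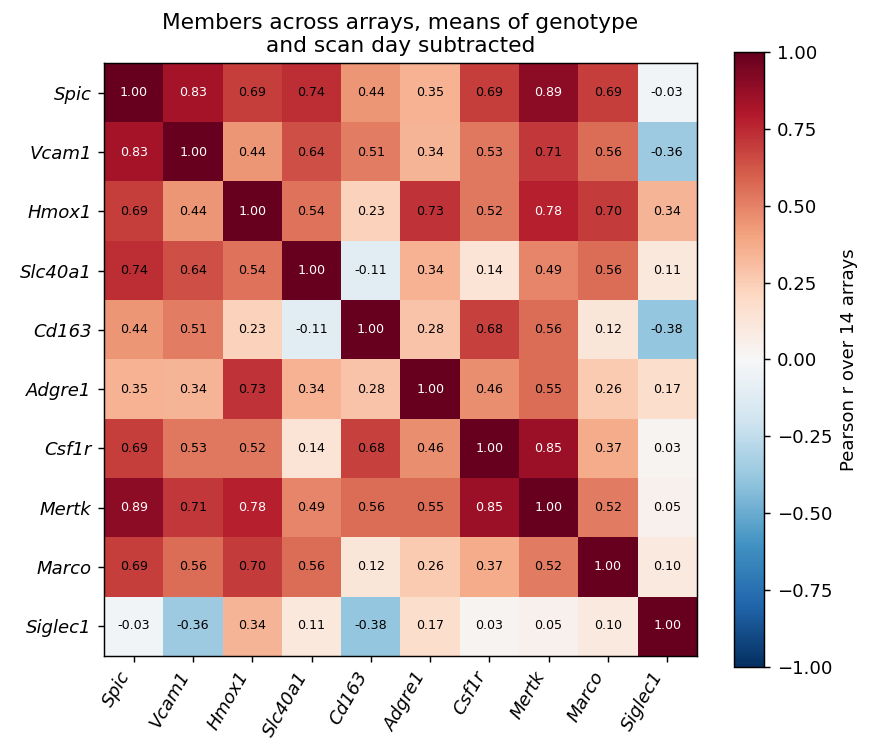
Pearson r between members over 14 arrays after subtracting the mean of each genotype and scan day (colour scale from -1 to 1, values printed in the cells). Spic and Mertk form the strongest pair at 0.89, and the Siglec1 row lies between -0.38 and 0.34.

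Spic was also correlated with each other member within scan days, without removing genotype means, which gave 18 relations. On day 2 (8 arrays) Spic and Mertk had Pearson's r = 0.95 (exact permutation p = 0.00062, adjusted over the 18 relations 0.0112) and Spearman's rho = 0.93 (exact permutation p = 0.00223, adjusted 0.0402). Without the 2 arrays farthest from the median of Spic, r was 0.89. This was the only relation of the 18 to pass the adjustment.

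Spic and Vcam1 came next on day 2 with r = 0.86 (exact permutation p = 0.00702, adjusted 0.0632) and rho = 0.81 (exact permutation p = 0.0218, adjusted 0.196), and r was 0.87 without the 2 farthest arrays. On day 1 (6 arrays) Spic and Mertk had r = 0.82 (exact permutation p = 0.0556, adjusted 0.143) and rho = 0.49 (exact permutation p = 0.356, adjusted 0.472). That r became -0.64 without the 2 farthest arrays, so on day 1 it rested on those arrays.

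**Figure D4:**
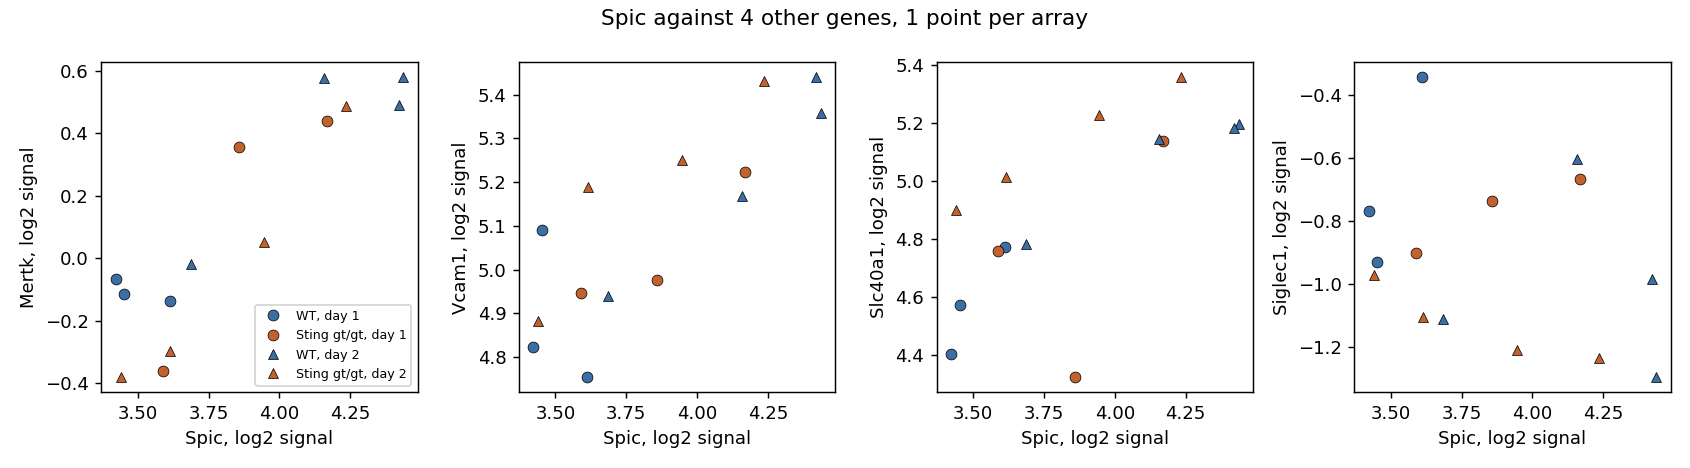
Spic (x axis) against Mertk, Vcam1, Slc40a1 and Siglec1 (y axes), all as log2 signal, 1 point per array, with genotype by colour and scan day by marker. Mertk rises with Spic on day 2 (r = 0.95 over 8 arrays), while the Siglec1 points follow no line.

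The 10 genes most like Spic by the same measure, of 14730 genes with a symbol that were ranked, were Itgad (r = 0.97), Mrc1 (0.95), St6galnac2 (0.94), Tmem37 (0.94), Hepacam2 (0.92), Ssu2 (0.91), Neil2 (0.91), Trim3 (0.91), 1700012D01Rik (0.91) and Socs2 (0.91). Itgad encodes integrin alpha D and Mrc1 the mannose receptor, both found on splenic macrophages. Mertk ranked 24, Vcam1 81 and Slc40a1 354 among the 14730 genes, and Siglec1 ranked 6778. Of the 10 genes, 1 passed an unadjusted p of 0.05 between genotypes, 1700012D01Rik (log2 fold change 0.24), against 3.48% of all genes. The other 9 did not pass.

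Other genes of the same cells and pathways were read from lists. Of 18 further splenic macrophage genes, 0 passed over all 14 arrays, and their median log2 fold change was 0.03. On day 1, 1 of the 18 passed, on the higher side, against 2.81% of all genes higher and 3.86% in either direction. It was Timd4, a receptor for phosphatidylserine on dying cells, which rose by 0.56 in Sting gt/gt mice. On day 2 Timd4 fell by 0.38, also past the unadjusted threshold. Its difference between days was -0.94 (exact permutation p = 0.00714, adjusted p = 0.103 by limma). For that difference 1 of the 18 passed on the lower side, against 10.3% of all genes. The lectin Fcna also fell on day 2 (-0.33), and the IgG receptor Fcgr1 (0.38) and the CD47 receptor Sirpa (0.35) rose, so 4 of 18 passed on that day against 23.3% of all genes.

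Of 26 iron and haem genes tested, 16 had a log2 fold change above 0 over all arrays and 10 below (median 0.04). Of them 1 passed, on the lower side, against 1.62% of all genes lower and 3.48% in either direction. Tfrc, the transferrin receptor, fell by 0.52 in Sting gt/gt mice (standard error 0.24, exact permutation p = 0.0641, adjusted p = 1.0 by limma), with 2.77 to 4.27 (median 3.23) against 3.17 to 4.47 (median 3.87) in WT. On day 2 the median of the 26 was 0.03, with 15 above 0 and 11 below. There 5 of the 26 passed, all lower in Sting gt/gt mice, against 12.3% of all genes lower and 23.3% in either direction. These were Tfrc (-0.66), Gclm for glutathione synthesis (-0.32), the haem transporter Slc48a1 (-0.30), the biliverdin reductase Blvrb (-0.29) and the ferritin receptor Ncoa4 (-0.25). On day 1, 1 of the 26 passed, ceruloplasmin (Cp, -0.42), against 1.05% of all genes lower and 3.86% in either direction. Hamp and Hpx were listed too but were not well above background on enough arrays.

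Erythroid markers, whose RNA can remain after lysis in nucleated precursors, were mostly lower. So were the iron genes that passed, while the medians of the iron list were near 0. Over all 14 arrays, where Tfrc passed, 9 of the 10 erythroid markers tested had a log2 fold change below 0 (median -0.36). Of them 1 passed, on the lower side, against 3.48% of all genes in either direction. With scan day as a term, 3 of the 10 passed, on the lower side, against 3.52% of all genes. On day 2, 7 were lower in Sting gt/gt mice, against 12.3% of all genes, and 0 higher, with a median of -0.47, among them Epb42 (-0.94), Ermap (-0.74), Rhag (-0.65) and Klf1 (-0.56). The summed level of the list (log2) was 9.38 to 9.63 in WT and 9.31 to 9.56 in Sting gt/gt mice on day 2. The mean log2 level of the 10 markers was 4.10 to 4.60 in WT and 3.69 to 4.02 in Sting gt/gt mice on that day, without overlap. The part of erythroid RNA in the values of Tfrc and the other iron genes was not tested.

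Of 16 tested ligands, partners and regulators of the members, 0 passed over all arrays, and their median log2 fold change was 0.08. On day 2, 4 of the 16 passed, all higher in Sting gt/gt mice, a share near the 23.3% of all genes. They were Spn, a sialylated surface protein bound by sialoadhesin (0.52), the MERTK ligands Gas6 (0.47) and Pros1 (0.26), and Itgb1, a chain of the VCAM-1 receptor (0.23). On day 1 the scavenger receptor Stab1 was lower (-0.37). It was the 1 of the 16 that passed, against 1.05% of all genes lower and 3.86% in either direction. The difference between days passed for Spn (0.66), Stab1 (0.50) and Pros1 (0.40), that is for 3 of 16 in the positive direction against 7.70% of all genes. Csf2 and Il10 were not well above background on enough arrays.

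Among the markers of other cells, the 9 monocyte genes, 9 neutrophil genes, 8 B cell genes, 8 T cell genes, 8 dendritic cell genes and 11 stromal and endothelial genes had 0 calls over all arrays. With scan day as a term, 1 of the 9 monocyte genes passed, on the higher side, against 3.75% of all genes, and the other lists still had 0. On day 2 the B cell list had 6 of 8 lower (median -0.49), against 12.3% of all genes, and 0 higher, among them Pax5 (-0.54), Blk (-0.54), Ms4a1 (-0.49) and Cd79b (-0.49). The monocyte list had 5 of 9 past the threshold, against 23.3% of all genes in either direction, with Ace (0.63), Cx3cr1 (0.34) and Nr4a1 (0.31) higher and Itgam (-0.38) and Csf3r (-0.34) lower. In the neutrophil list 2 of 9 passed, Mmp9 (0.53) and Cxcr2 (0.47), both higher. In the dendritic cell list 1 of 8 passed, Siglech (-0.30), and the T cell list had 0 calls. For these lists, too, the share over all genes in either direction is 23.3%. Vcam1 is also made by stroma, and of the 11 stromal and endothelial genes 5 had a log2 fold change above 0 on day 1 and 6 on day 2. The collagen genes Col1a1 and Col3a1 were lower in Sting gt/gt mice on day 1 (-0.60 and -0.46) and higher on day 2 (0.61 and 0.62). Of the 11 genes, 2 passed on day 1, on the lower side, against 1.05% of all genes lower and 3.86% in either direction. On day 2, 2 passed, on the higher side, against 23.3%. The log2 fold change of Vcam1 was 0.16 on day 1 and -0.04 on day 2, and the part of stromal RNA in its level was not tested.

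**Figure D5:**
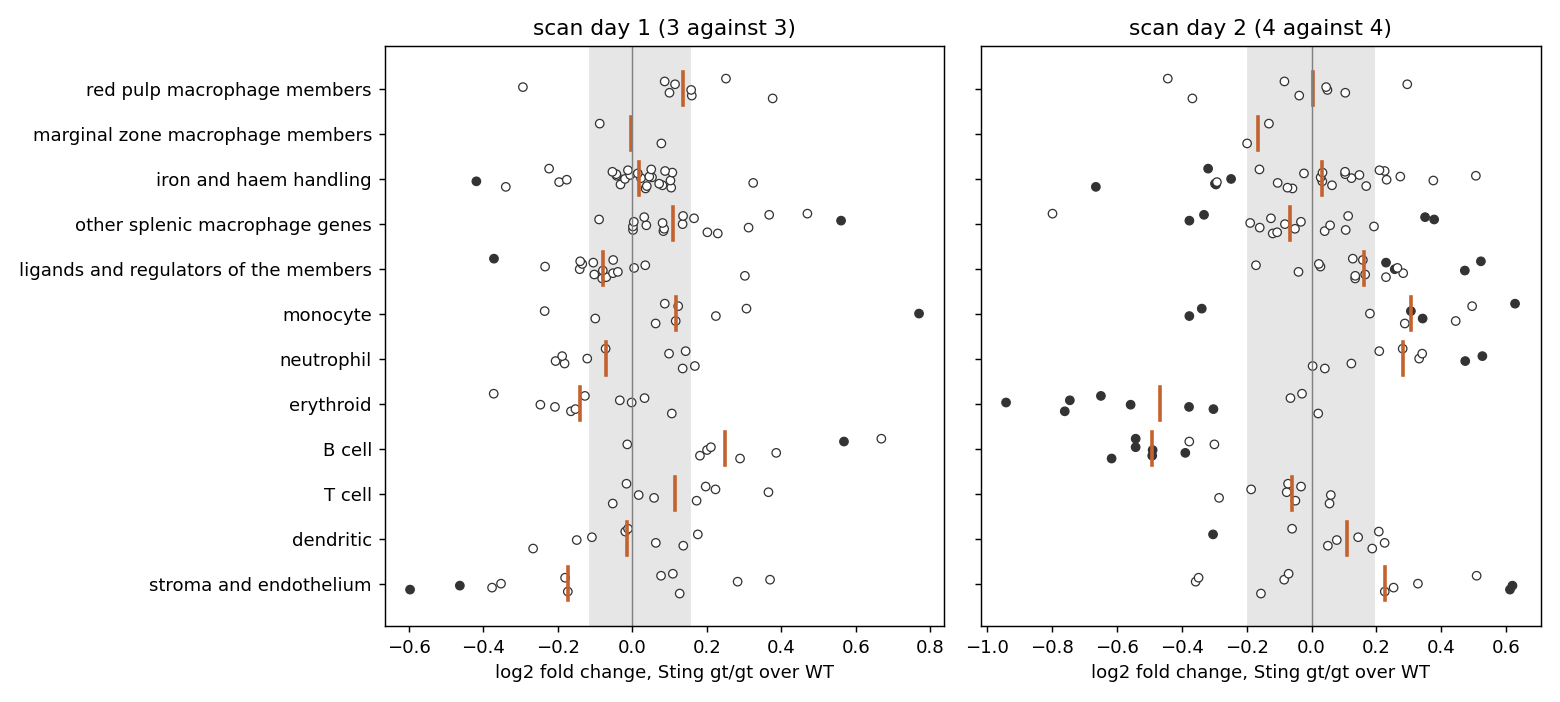
Log2 fold change of each tested gene (x axis), Sting gt/gt over WT, by gene list (y axis) within scan day 1 (left) and scan day 2 (right). Filled points pass an unadjusted p of 0.05 by limma, orange bars are list medians and the grey band spans the middle 50% of all 24908 genes. No point of the 2 member lists is filled, while 7 of 10 erythroid and 6 of 8 B cell points are filled on the lower side on day 2.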

How the data were processed

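Splenocyte RNA was hybridised to 14 one-colour Agilent arrays, 7 a genotype. Per the file headers, the authors ran Feature Extraction 11.0.1.1, whose processed signal intensity is corrected for background spot by spot and is not scaled between arrays. Flags for outlier spots, saturation and signal well above background come from the same deposited files. The authors also deposited a table of log2 values whose normalization is not given in the sources used here. Its columns correlated with the log2 intensity of the same array at 0.997 to 0.999, so scale and direction are known, and its centring is not.

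Each array's 75th percentile was subtracted from log2 of the processed intensity, flagged spots were left out and replicate spots were averaged. A probe was tested where 7 or more arrays had it well above background (31766 of 56605). Probes were named by unversioned accession through a RefSeq table (GRCm38.p6), where 32994 (58.3%) matched a symbol, and a gene was read from its brightest tested probe. The coordinates given are those of the promoter windows in GRCm38.p6, not of the probes. No member probe was saturated. Groups were compared by limma 3.58.1 (lmFit and eBayes, R 4.3.3), two-sided, with the unadjusted threshold of 0.05 that the study used for its arrays and Benjamini-Hochberg adjustment over all 24908 genes. Single members were also compared by two-sided exact permutation tests, whose smallest p is 0.000583 for 7 against 7, 0.0286 for 4 against 4 and 0.1 for 3 against 3, so day 1 alone could not reach 0.05. Each mouse gave 1 array, and their number limits the precision. Scripts were tested on simulated data.

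The rule named all members, the 10 genes most like Spic, Sting1 and, of each other list, up to 5 genes past the threshold with the largest change. On scan day 1, and for the difference between days, list genes are named in part, and some list genes that the rule named are not reported here. The members and lists were chosen with earlier results of these data known. Alternatives covered scaling, background correction, the deposited table, filters, flags, probes, tests, blocks and each array left out. For normexp (offset 50) the median spot signal replaced the mean signal, which is not a column used here. Replicate numbers are shared by the groups. Deviations of same-numbered arrays from their group means correlated at 0.16 to 0.53, and at -0.41 to 0.25 once scan-day means were removed, so the pairing comes with the scan day. Tables and figures used Python 3.11.15, numpy 2.4.6, pandas 2.3.3, scipy 1.17.1 and matplotlib 3.10.9.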

Additional observations from a re-analysis of the deposited data

Results flagged for a closer look

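In WT mice on scan day 2, replicate 6 lay apart from the other 3 arrays in Slc40a1 (4.78, the others 5.15 to 5.20) and in Mertk (-0.017, the others 0.49 to 0.58). On the second Adgre1 probe, Sting gt/gt replicate 5 of scan day 2 lay apart at -4.57, with the others between -3.88 and -3.77. In all, 44 groups of 4 or 7 values were checked in this way by Dixon's ratio, and chance sets a sample apart in about 5% of groups.

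The genotype difference of Spic differed between scan days by -0.74 on the log2 scale, by a test of the difference itself (exact permutation p = 0.0371). It did not pass after adjustment over all genes (adjusted p = 0.227 by limma). Before adjustment, 10.3% of all genes passed on the lower side. Slide and genotype cannot be told apart on scan day 2, so this test cannot separate them.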

How the results depend on the processing

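No setting gave a member an adjusted p under 0.05 between genotypes. The count of members called between genotypes was 0, and it became 1 with the mean of a gene's probes (Adgre1, 0.39) and 2 with array weights and an intensity trend (Adgre1, 0.25, and Mertk, -0.36). With array weights Spic was -0.27, Csf1r -0.15 and Vcam1 -0.0098, with the mean of probes Vcam1 was -0.026 and Csf1r 0.013, and with no scaling Vcam1 was -0.0072. With slide as a random block Spic was 0.066, Slc40a1 -0.00092, Csf1r 0.061 and Adgre1 0.13. With slide as a fixed block, which estimates genotype from the 5 arrays of the 2 slides that hold both, Spic was 0.23, Hmox1 -0.015, Slc40a1 -0.099, Csf1r 0.14, Mertk 0.16 and Adgre1 0.038, while the second Adgre1 probe was 0.94 (slide blocks on this probe were chosen after seeing the data). The replicate block and scan day as a term each left the count at 0 and Spic at -0.05, and changed no member's call. Within scan day 2 the count became 1 with median centring (Adgre1), no scaling (Mertk) or the mean of probes (Adgre1). The count between scan days, 2, became 5 with median centring, 4 with normexp, 1 with no scaling and 0 in the deposited table. Median centring moved the all-gene median of that contrast from -0.01 to 0.17, and its calls from 4269 higher and 5390 lower to 7844 and 3371. Siglec1 between days was -0.16 with median centring, -0.31 with no scaling and -0.23 in the table and did not pass there, and Slc40a1 was 0.10 in the table. The Spic difference between days passed the unadjusted threshold in the other 9 settings that gave a value, from -0.85 to -0.63. With 1 array left out in turn, the count between genotypes ranged from 0 to 1, within day 1 from 0 to 2, within day 2 from 0 to 2, for the difference between days from 0 to 2 and between scan days from 1 to 3. Over the same left-out arrays, the median of members stayed between -0.07 and 0.03, Csf1r ran from -0.079 to 0.054, Spic from -0.13 to 0.044 and Vcam1 from -0.0079 to 0.11. The second Adgre1 probe passed with each array left out (0.40 to 0.67) and fell to 0.19, not passing, with normexp. The causes were not tested. Signal over background limits the dim second probes of Adgre1, Cd163 and Siglec1.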
